A study of Mus musculus with 20 samples.

Results

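A list of 10 genes that mark mast cells was followed in epididymal fat (eWAT) from male mice of the C57BL/6J strain, and 8 of the 10 were among the 14776 genes of the deposited table. The members were listed by name as genes typical of mast cells, with no threshold on their values. They are the granule proteases Cpa3, Cma1, Mcpt4 and Tpsb2, the histamine-forming enzyme Hdc, the receptors Kit and Il1rl1 and the transcription factor Gata2. The other two, Fcer1a and Ms4a2, which encode the alpha and beta chains of the high-affinity IgE receptor, were not analysed here. The table holds genes that were above 0 in all 20 mice.

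Mast cells are long-lived immune cells of connective tissue, including adipose tissue, where they lie mainly along vessels. They store histamine, heparin and proteases in granules and release them when IgE bound to its receptor is cross-linked or when other signals such as IL-33 arrive. Their survival depends on stem cell factor acting on Kit, and mast cells are known to become more numerous in the fat of obese mice. The proteases are nearly restricted to mast cells, whereas Kit, Gata2, Il1rl1 and Hdc are also used by other cells, such as progenitor, endothelial, lymphoid and myeloid cells.

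The study compared 3 groups by RNA sequencing of whole eWAT. Normal control (NC, n = 6) mice ate maintenance chow. HFD mice (n = 7) ate a high-fat diet for 14 weeks from the age of 6 weeks and then received saline by mouth for 6 weeks, still on that diet. SZ-A mice (n = 7) had the same diet and received Ramulus Mori (Sangzhi) alkaloids, an extract of mulberry twig, in place of saline for those 6 weeks. All mice were of 1 strain with no labelled genetic change, so diet and extract were the only labelled differences. The paper names saline by mouth for HFD mice and does not state whether NC mice received it. HFD and NC mice may therefore also differ in that handling.

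Levels are given in FPKM, fragments scaled to the exon length of the gene and to the size of the library, which allows levels of different genes to be compared per length. The reads on the table's genes came to between 13567667 and 19388628 per mouse, as recovered from the FPKM steps. The tissue label was checked first, because it bears on every NC value. In NC replicate 6 the 9 adipocyte markers, among them Adipoq and Plin1, summed to 486 FPKM, against 9238 to 22212 in the other 5 NC mice. In the same mouse 2 epididymis genes of the table summed to 2852 FPKM, against 15.0 to 37.5 in the other NC mice, and the 11 endothelial markers summed to 19.8, against 253 to 729. SZ-A replicate 2 also stood apart in the epididymis genes, with 375 FPKM against 2.07 to 43.2 in the other SZ-A mice. The members' fold changes against NC are therefore also given without NC replicate 6, and the counts of other gene lists where they change. For Hdc in SZ-A against NC, the range over single mice left out is given instead. Correlations within NC are given with all 6 mice. Their r is also given without NC replicates 1 and 6, the 2 mice farthest from the median of Cpa3. The members called in SZ-A against HFD and in SZ-A against NC were also counted without SZ-A replicate 2, and those counts did not change. The 3 mesothelium and epithelium markers of the table summed to 556 FPKM in NC replicate 6 and to 21.6 to 483 in the other 5 NC mice. They summed to 4.29 to 17.3 FPKM in HFD mice and to 0.494 to 209 in SZ-A mice. This difference between NC and HFD mice remains without NC replicate 6, and its part in the member values was not tested. In bulk tissue, fewer mast cells and less RNA per mast cell cannot be told apart.

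The promoters of 4 members are shown because 3 of the genes, Cpa3, Mcpt4 and Cma1, moved together across the mice, and because Il1rl1 followed them in the HFD group. Each sequence is the 250 bases before the RefSeq transcription start on GRCm38.p6, on the strand of the gene. Capitals mark GATA motifs (AGATAA or TGATAA, bound by GATA factors such as GATA2) and TATA boxes (TATAAA), on either strand. The regions are chr3:20242182-20242431 (minus strand) for Cpa3, chr14:56062311-56062560 (minus strand) for Mcpt4, chr14:55944676-55944925 (minus strand) for Cma1 and chr1:40429320-40429569 (plus strand) for the first start site of Il1rl1.
Cpa3: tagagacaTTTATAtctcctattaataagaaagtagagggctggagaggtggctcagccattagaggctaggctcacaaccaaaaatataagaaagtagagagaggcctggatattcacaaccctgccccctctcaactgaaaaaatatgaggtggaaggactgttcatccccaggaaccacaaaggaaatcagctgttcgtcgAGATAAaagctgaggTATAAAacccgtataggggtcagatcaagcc
Mcpt4: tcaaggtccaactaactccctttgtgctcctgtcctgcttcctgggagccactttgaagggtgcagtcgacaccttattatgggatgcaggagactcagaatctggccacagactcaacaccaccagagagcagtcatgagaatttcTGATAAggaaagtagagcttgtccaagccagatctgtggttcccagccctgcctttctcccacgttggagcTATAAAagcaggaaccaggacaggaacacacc
Cma1: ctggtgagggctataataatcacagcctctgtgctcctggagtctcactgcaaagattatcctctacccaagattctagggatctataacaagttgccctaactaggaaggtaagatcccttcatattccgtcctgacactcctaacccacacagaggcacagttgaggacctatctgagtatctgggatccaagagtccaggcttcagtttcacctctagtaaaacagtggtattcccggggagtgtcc
Il1rl1: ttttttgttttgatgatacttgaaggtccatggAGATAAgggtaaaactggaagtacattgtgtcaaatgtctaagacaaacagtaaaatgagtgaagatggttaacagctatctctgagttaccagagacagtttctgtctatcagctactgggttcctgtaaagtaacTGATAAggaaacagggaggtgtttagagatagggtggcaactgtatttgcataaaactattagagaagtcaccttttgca
Cpa3 held AGATAA beginning 46 bases before the start, and TATA boxes 31 bases before it and, on the other strand, 242 bases before it. Mcpt4 held TGATAA 103 bases before the start and a TATA box 32 bases before it. Cma1, whose level also followed the other proteases, held neither motif in the letters given above. Other spellings of the GATA motif were not searched for in any promoter, so the presence or absence given here holds for AGATAA and TGATAA only. The Cma1 letters do include ctatct, which reads AGATAG on the other strand, and whether GATA factors bind there was not tested. Il1rl1 held 2 GATA motifs in the searched spellings, at 217 and 80 bases before the start, and its letters also include agatag. A MITF E-box (CATGTG or CACGTG), the site of another mast cell factor, was found in none of these 4 windows. Over 32851 RefSeq promoters 18.6% held a GATA motif, 20.4% a MITF E-box and 13.6% a TATA box. Those windows ran from 250 bases before to 50 after the start, and so were longer than the 4 shown. RefSeq promoters were found for 9 of the 10 listed genes, and not for Tpsb2. The promoters of Kit, Hdc and Gata2, which are not shown, held no GATA motif in the searched spellings. The 4 shown were chosen for their levels, and whether they hold the motif more often than other promoters was not tested. These matches describe the letters and are not evidence of binding.

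The granule proteases reached the highest levels of the members in FPKM. Over the 20 mice they ranged 212-fold (Mcpt4) to 393-fold (Cma1), and Il1rl1 239-fold from a lowest value of 3 reads. Cpa3, on chromosome 3 (GRCm38, 20215620 to 20242181, minus strand), encodes mast cell carboxypeptidase A. Its level was 0.317, 1.80 and 3.39 FPKM in the lowest, median and highest NC mouse, 6.46, 31.3 and 96.9 FPKM in HFD, and 1.22, 2.88 and 7.59 FPKM in SZ-A. All 7 HFD mice were above all 6 NC mice, and 6 of the 7 SZ-A mice were below all HFD mice. The lowest NC values rested on 7 and 8 reads, while the highest HFD value rested on 2264 reads.

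Cma1, on chromosome 14 (55941451 to 55944675, minus strand), encodes the chymase mMCP-5. It stood at 0.504, 3.95 and 10.7 FPKM in NC (lowest, median, highest), 11.6, 56.9 and 198 FPKM in HFD, and 3.11, 5.47 and 14.9 FPKM in SZ-A. The lowest HFD mouse was just above the highest NC mouse, and 4 of the 7 SZ-A mice were below every HFD mouse. Mcpt4, also on chromosome 14 (56059629 to 56062313, minus strand), encodes the chymase mMCP-4, regarded as the functional counterpart of human chymase. Its levels were 1.01, 4.08 and 6.32 FPKM in NC, 14.5, 64.1 and 213 FPKM in HFD, and 3.94, 8.73 and 24.1 FPKM in SZ-A. HFD and NC did not overlap, and 5 of 7 SZ-A mice lay below all HFD mice. Tpsb2, on chromosome 17 (25366305 to 25369098, plus strand), encodes the tryptase mMCP-6. It stood at 0.746, 4.88 and 6.22 FPKM in NC, 15.3, 58.3 and 195 FPKM in HFD, and 3.59, 9.81 and 20.7 FPKM in SZ-A. Again HFD and NC did not overlap, and 5 of 7 SZ-A mice were below the lowest HFD mouse.

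**Figure D1:**
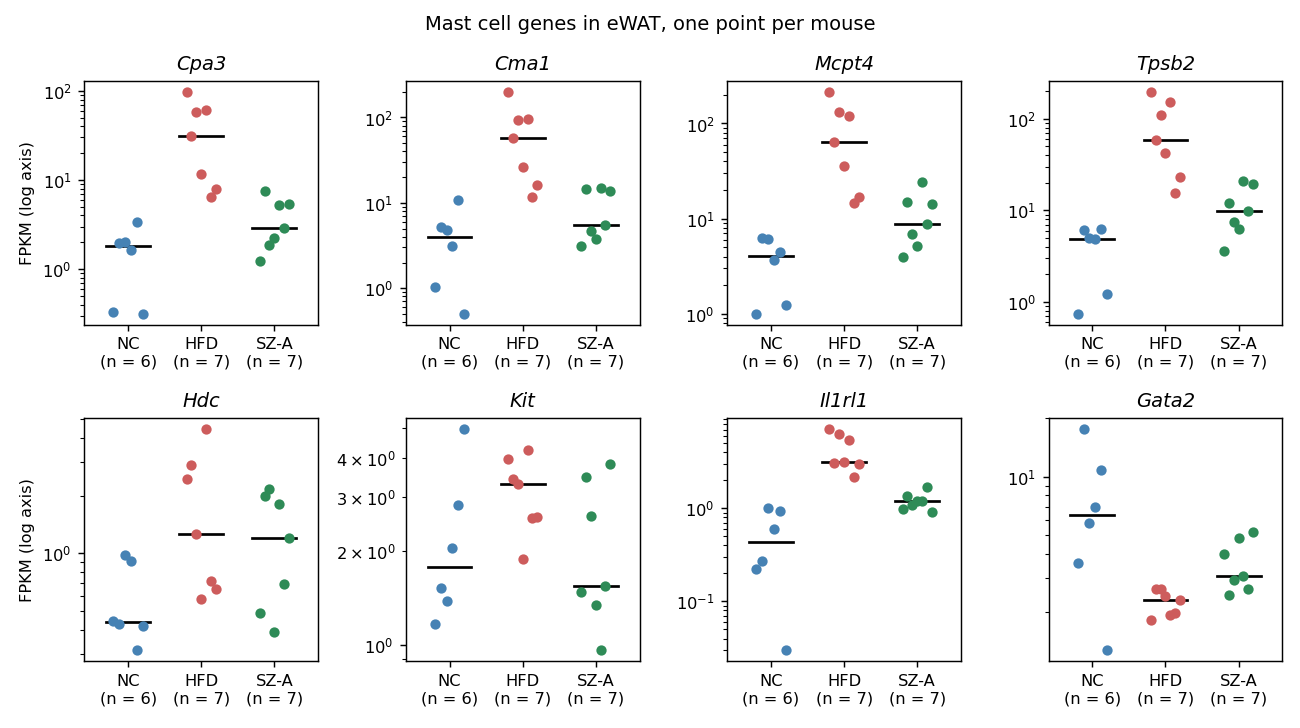
FPKM of the 8 mast cell genes in each mouse (log axis), by group, with 1 point per mouse, in replicate order from left to right, and a black line at the group median. The 4 proteases and Il1rl1 are higher in every HFD mouse than in any NC mouse, while Gata2 has its highest values, up to 17.7 FPKM, in NC mice.

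With high-fat feeding, the 4 proteases were 16.9 to 24.3 times as high in the mean. Mean ± SD rose from 1.61 ± 1.17 to 39.0 ± 34.2 FPKM for Cpa3, from 4.21 ± 3.68 to 71.2 ± 65.9 FPKM for Cma1, from 3.81 ± 2.31 to 85.1 ± 73.5 FPKM for Mcpt4 and from 4.01 ± 2.43 to 85.2 ± 68.8 FPKM for Tpsb2 (n = 6 NC and 7 HFD). Fold changes were fitted by limma on log2(FPKM + 1), a scale that understates the change of low genes. The log2 fold change was 3.49 ± 0.61 (SE) for Cpa3 (limma adjusted p = 0.000498), 3.54 ± 0.66 for Cma1 (adjusted p = 0.000854), 3.77 ± 0.61 for Mcpt4 (adjusted p = 0.000311) and 3.82 ± 0.59 for Tpsb2 (adjusted p = 0.000202). The exact two-sided permutation test over mice gave p = 0.00117 for each of them, or 0.0040 after adjustment over 24 such tests, where 0.000583 is the smallest p this design can give. Without NC replicate 6 the log2 fold changes were 3.32 for Cpa3, 3.24 for Cma1, 3.59 for Mcpt4 and 3.63 for Tpsb2.

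Under SZ-A the proteases were lower than in HFD mice. The means fell to 3.76 ± 2.32 FPKM for Cpa3, 8.60 ± 5.50 for Cma1, 11.2 ± 7.14 for Mcpt4 and 11.3 ± 6.57 for Tpsb2 (SD, n = 7), and HFD means were 10.4, 8.28, 7.60 and 7.52 times as high, in this order. The log2 fold change was -2.64 ± 0.56 (SE) for Cpa3 (limma adjusted p = 0.00463), -2.55 ± 0.58 for Cma1 (adjusted p = 0.00654), -2.46 ± 0.57 for Mcpt4 (adjusted p = 0.0078) and -2.51 ± 0.53 for Tpsb2 (adjusted p = 0.00467). Exact permutation p-values were 0.00117, 0.00408, 0.0035 and 0.00233. Without any 1 of the 14 mice the log2 fold changes stayed within -2.94 and -2.32 for Cpa3 and within -2.78 and -2.15 for Mcpt4.

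Against NC, the protease means of SZ-A mice were 2.34, 2.04, 2.94 and 2.83 times as high for Cpa3, Cma1, Mcpt4 and Tpsb2, and no protease passed limma's adjusted threshold. The log2 differences were 0.85 ± 0.36 (SE) for Cpa3, 0.99 ± 0.49 for Cma1, 1.31 ± 0.42 for Mcpt4 and 1.31 ± 0.43 for Tpsb2, with limma adjusted p-values of 0.216, 0.295, 0.1003 and 0.109. An interval of 2 standard errors on either side ran from 0.46 to 2.15 for Mcpt4 and from 0.44 to 2.18 for Tpsb2, so missing the threshold does not show that SZ-A and NC mice had equal levels. The exact permutation test gave p = 0.0198 for Mcpt4 and 0.0216 for Tpsb2, which pass after adjustment over the 24 tests (0.034 and 0.0345), and p = 0.0548 for Cpa3 and 0.0979 for Cma1, which do not. With array quality weights, which count mice that stand apart less, the differences were 0.24 for Cpa3, 0.19 for Cma1, 0.46 for Mcpt4 and 0.47 for Tpsb2. In this comparison 5 of the 7 SZ-A mice were above every NC mouse for Mcpt4 and for Tpsb2, and 3 for Cpa3 and for Cma1. Without NC replicate 6 the log2 differences were 0.68 for Cpa3, 0.69 for Cma1, 1.12 for Mcpt4 and 1.12 for Tpsb2, and again none passed by limma. Without NC replicate 6 and SZ-A replicate 2 they were 0.52 for Cpa3 and 0.54 for Cma1, and the values of Mcpt4 and Tpsb2 are not reported here.

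The transcript of the histamine-forming enzyme did not pass limma's adjusted threshold in any comparison. Hdc, histidine decarboxylase, on chromosome 2 (126593667 to 126619299, minus strand), stood at 0.312, 0.437 and 0.984 FPKM in NC (lowest, median, highest), 0.580, 1.26 and 4.45 FPKM in HFD and 0.391, 1.20 and 2.16 FPKM in SZ-A. The groups overlapped in all comparisons, although 4 of 7 HFD mice and 4 of 7 SZ-A mice were above every NC mouse. The log2 fold change of HFD over NC was 0.72 ± 0.28 (SE), which missed the threshold (limma adjusted p = 0.0537), as it did without NC replicate 6 (0.69, adjusted p = 0.0746). It passed with a smaller pseudocount of 0.1, at 1.26 (adjusted p = 0.0427), and without NC replicate 3 or HFD replicate 4, 6 or 7, where it was between 0.79 and 0.83. SZ-A against HFD gave -0.27 ± 0.30 (adjusted p = 0.531) and SZ-A against NC 0.45 ± 0.21 (adjusted p = 0.262). With 1 mouse left out at a time, SZ-A against NC ran from 0.36 to 0.55 (limma adjusted p from 0.170 to 0.425).

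Among the receptors, Il1rl1 moved with the proteases and Kit did not pass the test. Il1rl1, on chromosome 1 (40429570 to 40465415, plus strand), encodes ST2, the receptor of IL-33. Its level was 0.0299, 0.437 and 1.002 FPKM in NC, 2.17, 3.11 and 7.14 FPKM in HFD and 0.919, 1.19 and 1.69 FPKM in SZ-A. HFD mice lay above all NC and all SZ-A mice, the only member for which HFD overlapped with neither group, and 5 of 7 SZ-A mice were above every NC mouse. NC mice had a mean of 0.513 ± 0.402 FPKM, HFD mice 4.32 ± 1.95 and SZ-A mice 1.20 ± 0.256 (SD). The log2 fold change was 1.78 ± 0.24 for HFD over NC (limma adjusted p = 7.31e-05) and -1.20 ± 0.19 for SZ-A against HFD (adjusted p = 0.00114), with the exact permutation p at its smallest possible value of 0.000583 in both. SZ-A over NC was 0.58 ± 0.16 (adjusted p = 0.0518), and it passed without NC replicate 3 (0.67, adjusted p = 0.0224) or NC replicate 5 (0.66, adjusted p = 0.0317). The exact permutation test of SZ-A over NC gave p = 0.00291, or 0.00699 after adjustment over the 24 tests. The lowest NC value came from NC replicate 6 and rested on 3 reads. Without that mouse HFD over NC was 1.67 and SZ-A over NC 0.47 (adjusted p = 0.0766).

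Kit, on chromosome 5 (75574916 to 75656722, plus strand), encodes the receptor of stem cell factor. It stood at 1.17, 1.78 and 4.97 FPKM in NC, 1.88, 3.29 and 4.25 FPKM in HFD and 0.958, 1.55 and 3.83 FPKM in SZ-A. The highest of all 20 values belonged to NC replicate 6, and the other 5 NC mice lay between 1.17 and 2.83 FPKM. The log2 fold change of HFD over NC was 0.38 ± 0.23 (SE, limma adjusted p = 0.191), and without NC replicate 6 it was 0.57 ± 0.17 and passed (adjusted p = 0.0170). SZ-A against HFD gave -0.43 ± 0.21 (adjusted p = 0.143), and 4 of 7 SZ-A mice were below every HFD mouse. SZ-A against NC gave -0.05 ± 0.27 (adjusted p = 0.946), and its sign turned without NC replicate 6 (0.14).

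Gata2 ran the opposite way to the proteases. It lies on chromosome 6 (88193891 to 88207032, plus strand) and encodes a transcription factor that mast cells need, and that endothelial and progenitor cells use as well. Its level was 1.27, 6.37 and 17.7 FPKM in NC, 1.83, 2.31 and 2.64 FPKM in HFD and 2.45, 3.07 and 5.18 FPKM in SZ-A. The 7 HFD values were close together, and 5 of the 6 NC mice, at 3.59 FPKM or more, were above all of them, with NC replicate 6 below. HFD against NC was -1.13 ± 0.37 on the log2 scale (limma adjusted p = 0.0252, exact permutation p = 0.0163), and -1.46 without NC replicate 6 (adjusted p = 0.000685). Without NC replicate 2 or NC replicate 5 the change no longer passed (-0.85, adjusted p = 0.0502, and -0.98, adjusted p = 0.0547). SZ-A against HFD was 0.47 ± 0.14 (adjusted p = 0.0248), with 5 of 7 SZ-A mice above all HFD mice. That call was lost when all 3 groups shared 1 estimate of the spread (adjusted p = 0.318), and also on leaving out HFD replicate 1, HFD replicate 5, SZ-A replicate 1 or SZ-A replicate 4, each alone (adjusted p from 0.0509 to 0.0545). SZ-A against NC was -0.66 ± 0.39 (adjusted p = 0.375), and -0.99 without NC replicate 6 (adjusted p = 0.0770).

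Counted over the members, HFD against NC called 5 of the 8 higher and 1 lower at an adjusted p under 0.05, against 21.0% of all 14706 genes tested called higher and 20.1% called lower. The 5 that rose, Cpa3, Cma1, Mcpt4, Tpsb2 and Il1rl1, also had a log2 fold change above 1.5, as 5.43% of all genes did, and did not overlap with NC, as held for 12.7% of all genes. Without NC replicate 6, Kit was called as well, which made 6 higher and 1 lower. SZ-A against HFD called the same 5 genes lower and Gata2 higher, where 13.3% of all 14695 genes tested were called lower and 9.47% higher. Of the 5, 4 fell by more than 1.5 on the log2 scale, against 0.558% of all genes, and 1, Il1rl1, did not overlap, against 4.01%. SZ-A against NC called 0 of 8 by limma, where 4.15% of all 14718 genes tested were called higher and 0.455% lower. At an unadjusted p under 0.05 it would have been 5 of 8 (Cpa3, Mcpt4, Tpsb2, Hdc and Il1rl1), and limma's voom on the recovered reads also called 0. The exact permutation test, adjusted over the 24 tests of members, passed 3 of the 8 (Mcpt4, Tpsb2 and Il1rl1). The median log2 fold change of the members was 2.63, -1.83 and 0.71 in the 3 comparisons, and that of all genes -0.04, 0.03 and -0.00. The comparisons share groups, HFD standing in the first and the second, so the opposite signs of a gene in them are not independent of each other.

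**Figure D2:**
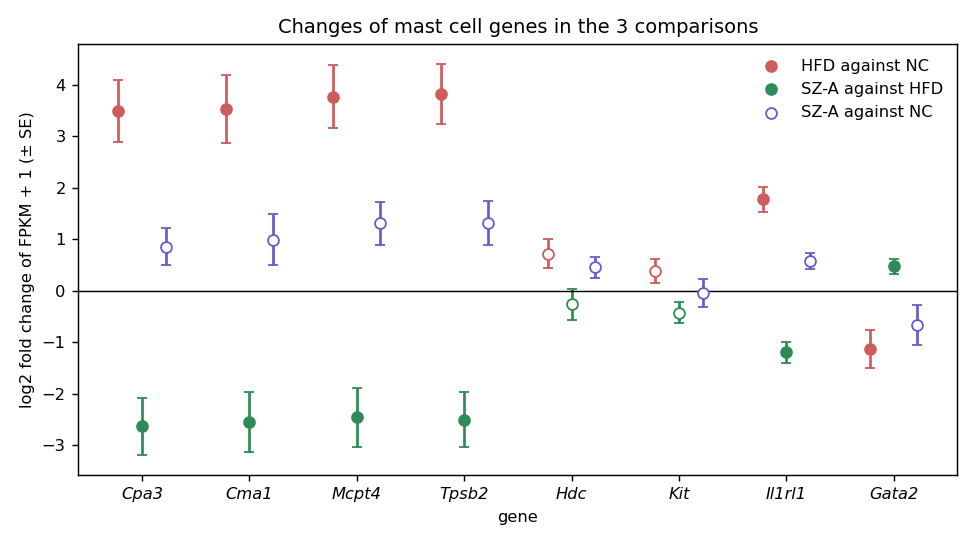
Log2 fold change of FPKM + 1 (points) with its standard error (bars) for the 8 mast cell genes in the 3 comparisons, where filled points have an adjusted p under 0.05 by limma and open points do not. The proteases lie between 3.49 and 3.82 for HFD against NC and between -2.64 and -2.46 for SZ-A against HFD, and no point of SZ-A against NC is filled.

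The 4 proteases kept close to a fixed proportion while their level changed. Over the 20 mice Cpa3 ranged 306-fold, from 0.317 to 96.9 FPKM, whereas Cma1 per Cpa3 ranged only from 1.58 to 3.14. Mcpt4 per Cpa3 ranged from 1.33 to 4.63 and Tpsb2 per Cpa3 from 1.60 to 3.98. The mean ratio of Cma1 to Cpa3 was 2.46 ± 0.631 for NC (2.64 ± 0.519 without NC replicate 6), 1.87 ± 0.240 for HFD and 2.28 ± 0.446 for SZ-A (SD). Kit behaved differently, with a ratio to Cpa3 from 0.0410 in an HFD mouse to 15.7 in NC replicate 6, where Cpa3 had 7 reads, and a mean of 3.80 ± 5.92 for NC (1.43 ± 1.22 without that mouse), 0.166 ± 0.141 for HFD and 0.729 ± 0.428 for SZ-A. Sharing of reads between relatives could affect only a small stretch of these genes. Of the 50-base windows of Cma1 transcripts 5.38% also occur in another gene, and of Mcpt4 5.48%, against none for Cpa3 and Tpsb2.

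Within the HFD group the mice differed widely, and the 4 proteases and Il1rl1 differed together. The summed level of the 4 proteases was 704 FPKM in HFD replicate 1 and 47.9 FPKM in HFD replicate 6, a 14.7-fold range on the same diet. Across the 7 HFD mice Cpa3 correlated with Cma1 at r = 0.99 (exact permutation p = 0.000198, adjusted 0.00298 over 30 relations; rho = 1, adjusted p = 0.00595), with Mcpt4 at r = 0.99 (permutation p adjusted 0.00397; rho = 0.96, adjusted 0.0167) and with Tpsb2 at r = 0.98 (permutation p adjusted 0.00298; rho = 1, adjusted 0.00595). Il1rl1 followed Cpa3 at r = 0.92 (permutation p = 0.00992, adjusted 0.0248; rho = 0.93, adjusted 0.0337). Without the 2 mice farthest from the median of Cpa3, r was 0.99 for Cma1 and for Mcpt4, 0.96 for Tpsb2 and 0.89 for Il1rl1. For Kit r was 0.84 (permutation p adjusted 0.0527; rho = 0.82, adjusted 0.0683), for Hdc 0.77 (adjusted 0.0974; rho = 0.68, adjusted 0.204) and for Gata2 -0.16 (adjusted 0.781; rho = -0.29, adjusted 0.667), none of which passed.

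In the other groups Cpa3 also went with other proteases, while its relation with Il1rl1 did not pass the test. Across the 7 SZ-A mice Cpa3 correlated with Cma1 at r = 0.96 (permutation p adjusted 0.0119), with Mcpt4 at 0.90 (adjusted 0.0248) and with Tpsb2 at 0.86 (adjusted 0.0403), with rho of 0.86, 0.86 and 0.82 (adjusted 0.0649, 0.0649 and 0.0683), and r was 0.97, 0.91 and 0.97 without the 2 farthest mice. Il1rl1 had r = 0.17 there (permutation p adjusted 0.781; rho = 0.25, adjusted 0.686), and whether this differs from the HFD value was not tested. Across the 6 NC mice Cma1 had r = 0.99 (permutation p adjusted 0.0119; rho = 0.94, adjusted 0.0556) and Tpsb2 r = 0.95 (adjusted 0.0248; rho = 0.89, adjusted 0.0683), with r of 0.99 and 0.70 without the 2 farthest mice. For Mcpt4 r was 0.89 (permutation p adjusted 0.0778) and rho was 0.71 (adjusted 0.204). The r of Mcpt4 rested on NC replicates 1 and 6, the 2 mice farthest from the median, since r without them was -0.01. Il1rl1 had r = 0.82 across the 6 NC mice (permutation p adjusted 0.0926) and rho = 0.89 (adjusted 0.0683), the same rho as Tpsb2. Without NC replicates 1 and 6 the r of Il1rl1 was 0.47.

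**Figure D3:**
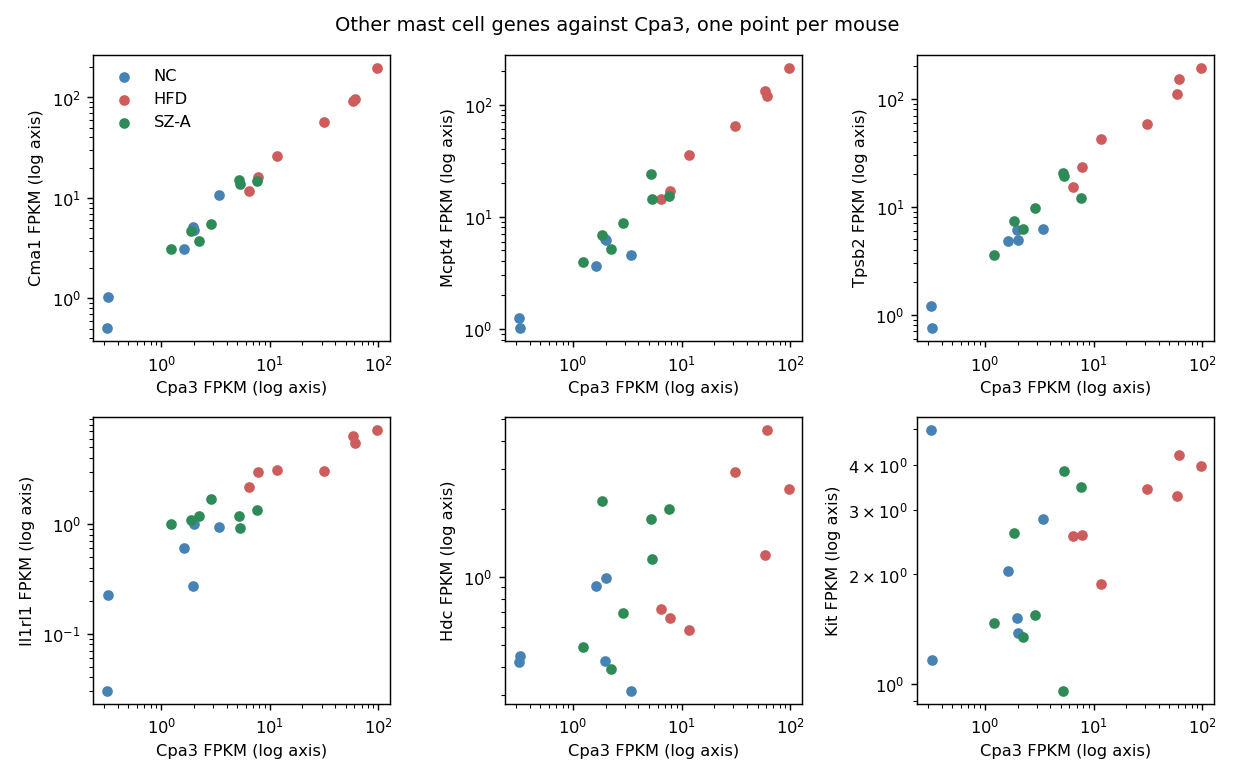
FPKM of 6 mast cell genes against FPKM of Cpa3, 1 point per mouse, with log axes and colours for the 3 groups. Cma1, Mcpt4 and Tpsb2 lie along 1 line from NC to HFD mice, Il1rl1 rises along Cpa3 more slowly, and Kit spans only 0.958 to 4.97 FPKM over the whole range of Cpa3.

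With group means removed, likeness to each member was ranked over 14716 genes and 20 mice. The description carries no test. For each protease the 3 genes most like it were the other 3 proteases, with r from 0.94 to 0.97. After them came Tfec (0.84) and Vps26a (0.82) for Cpa3. Il1rl1 had r of 0.76 to 0.80 with the proteases, and the genes most like it were Pik3cg (0.89), Clec7a (0.88), Hgsnat (0.87), Layn (0.86) and Vps26a (0.86). Hdc had r of 0.60 to 0.65 with the proteases, and Mcpt4 and Cpa3 (both 0.65) were among its 5 most like genes, beside Spp1 (0.68), Gm10651 (0.67) and Kti12 (0.65). Kit had only 0.21 to 0.35 with the proteases, and its most like genes were Lrrc10b (0.82), Prkacb (0.81), Spire1 (0.81), Zc3h14 (0.80) and Golph3 (0.80). Gata2 had 0.23 to 0.36 with the proteases and was most like Mmp17 (0.94), Csrp1 (0.94), Tgfb1i1 (0.91), Pygm (0.91) and Meis2 (0.90). In this ranking the 4 proteases were most like each other, Il1rl1 and Hdc varied with them less closely, and Kit and Gata2 mostly varied with other genes. NC replicate 6, with the highest Kit and the lowest Cpa3 and Gata2 of all mice, was included, and no ranking was made without it. Within groups, r of Kit with Cpa3 was 0.84 in HFD mice (0.91 without the 2 farthest mice) and 0.43 in SZ-A mice (0.07 without them). In NC mice it was -0.17, and 0.70 without NC replicates 1 and 6. The part of NC replicate 6 in the ranking of Kit was not tested.

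The counts of the gene lists that follow stand beside the shares of all genes given above, 21.0% higher and 20.1% lower in HFD against NC, 9.47% higher and 13.3% lower in SZ-A against HFD, and 4.15% higher and 0.455% lower in SZ-A against NC. Other genes typical of mast cells were sparse in the table. Of 19 listed, among them Mcpt1, Mcpt2, Ctsg and Gata1, 6 were in it, and Tpsab1, the second tryptase, was not analysed here. HFD against NC called 1 of the 6 higher (2 higher and 2 lower without NC replicate 6), and SZ-A against HFD 1 higher and 1 lower (1 higher and 2 lower without SZ-A replicate 2). Higher in HFD was Hpgds, the prostaglandin D2 synthase, which macrophages also make. It stood at 0.761 ± 0.228, 28.0 ± 8.61 and 10.3 ± 9.76 FPKM for NC, then HFD, then SZ-A mice (mean ± SD, the order used below), with log2 fold changes of 3.99 for HFD against NC (limma adjusted p = 1.5e-08), -1.64 for SZ-A against HFD (adjusted p = 0.0062) and 2.36 for SZ-A against NC (adjusted p = 0.0027). Ltc4s, which makes leukotriene C4, was higher in SZ-A than in HFD (55.0 ± 31.7 against 24.4 ± 7.94 FPKM, log2 fold change 1.03, adjusted p = 0.024).

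Of 16 genes for filling and emptying granules, HFD against NC called 8 higher (8 higher and 1 lower without NC replicate 6) and SZ-A against HFD called 7 lower, with median log2 fold changes over the list of 0.53 and -0.49. SZ-A against NC called 0 of 16 by limma, 5 at an unadjusted p under 0.05 and 1 by voom. Ctsc, the peptidase that trims pro-chymases, stood at 17.3 ± 6.40, 30.6 ± 3.83 and 16.8 ± 1.59 FPKM, with log2 fold changes of 0.89 for HFD against NC and -0.82 for SZ-A against HFD (limma adjusted p = 0.012 and 0.0003). Ndst2, the enzyme that sulfates mast cell heparin, went from 5.93 ± 0.742 to 10.1 ± 1.17 and 7.08 ± 1.57 FPKM, a log2 fold change of 0.67 and then of -0.47 (adjusted p = 0.00023 and 0.013). Chst11, which sulfates chondroitin, changed by 1.80 and by -0.74 on the same scale, and Serpinb1a, an inhibitor of granule proteases, by 1.54 and by -0.95. Srgn, the proteoglycan core of the granule, did not pass, at 77.4 ± 78.1, 53.2 ± 23.5 and 52.8 ± 25.8 FPKM. All of these enzymes are used by many cell types.

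Most signalling genes of the IgE receptor were higher with high-fat feeding. Of 19 such genes, 14 were called higher and 1 lower in HFD against NC (16 and 2 without NC replicate 6), and 14 lower and 1 higher in SZ-A against HFD. The list's median log2 fold change was 1.39 and -0.75 in these comparisons, against -0.04 and 0.03 over all genes. Fcer1g, the gamma chain shared with other Fc receptors of myeloid cells, stood at 17.3 ± 8.65, 268 ± 116 and 113 ± 95.4 FPKM in NC, HFD and SZ-A. By limma, 8 of the 19 were still called higher in SZ-A than in NC (9 without NC replicate 6), where it called no protease. Mcpt4 and Tpsb2 passed the permutation test there, which was run for members only. Their log2 differences were 1.31 each, and the median of the 19 genes was 0.61. Whether the proteases differ from these genes in this was not tested. Lat2, an adaptor next to the receptor, was among the 8, at 0.564 ± 0.375, 34.1 ± 10.5 and 15.7 ± 12.6 FPKM, and so were Fcer1g and the exchange factor Vav1. Plcg1, a phospholipase C, ran the other way, with log2 fold changes of -0.74 and 0.62 (limma adjusted p = 0.015 in both).

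Of 13 genes around Kit and stem cell factor, Kit among them, 3 were called higher in HFD against NC (5 higher and 1 lower without NC replicate 6), 5 lower in SZ-A against HFD and 1 higher in SZ-A against NC. The share of the list called higher with high-fat feeding, 3 of 13, was near that of all genes. Kitl, stem cell factor itself, did not pass in any, at 19.7 ± 14.7, 25.5 ± 5.50 and 19.7 ± 3.68 FPKM. Those that moved most were Pik3cd and Ptpn6, a kinase subunit and a phosphatase of many leukocytes, with log2 fold changes of 2.25 and 1.88 in HFD against NC. Of 8 genes of the IL-33 axis, Il1rl1 among them, 2 were called higher and 1 lower in HFD against NC, and 4 lower and 1 higher in SZ-A against HFD, where the first share, 2 of 8, was also near that of all genes. Il33 stood at 3.72 ± 2.42, 5.67 ± 3.73 and 2.40 ± 1.83 FPKM and was called only in SZ-A against HFD (log2 fold change -0.99, limma adjusted p = 0.034). Il1rap, the co-receptor of ST2, changed by 0.41 and by -0.44 (adjusted p = 0.0065 and 0.0012). Sigirr, an inhibitory receptor of the family, changed by -0.96 and by 0.83 (adjusted p = 0.00018 and 0.0011).

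Of 5 genes of histamine handling, Hdc among them, limma called 0 in each comparison, voom called 0, and 1 had an unadjusted p under 0.05 in each. Without NC replicate 6, 1 was called lower in HFD against NC. Hnmt, which breaks histamine down, stood at 15.0 ± 4.25, 13.1 ± 1.79 and 14.1 ± 4.33 FPKM. Slc18a2, the transporter that loads histamine into granules, stood at 0.733 ± 0.224, 1.36 ± 0.720 and 0.601 ± 0.218 FPKM (log2 fold change -0.51 for SZ-A against HFD, adjusted p = 0.052). Among 14 transcription factors of mast cells, Gata2 included, 5 were called higher and 1 lower in HFD against NC (5 and 2 without NC replicate 6), and 4 lower and 1 higher in SZ-A against HFD, with list medians of 0.60 and -0.06 on the log2 scale. Spi1 (PU.1), a myeloid factor, went from 4.03 ± 1.99 to 91.8 ± 27.9 and 39.6 ± 26.7 FPKM. Mitf, which mast cells need for protease and Kit expression, went from 2.81 ± 1.73 to 10.8 ± 2.79 and 5.63 ± 2.42 FPKM (log2 fold change 1.73 and then -0.86, adjusted p = 0.00028 and 0.0082), and Lmo2 changed by 2.42 and by -0.99. With all NC mice Gata2 was the one called lower.

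Of 10 lipid mediator genes, 5 were called higher and 2 lower in HFD against NC, and 4 lower and 1 higher in SZ-A against HFD (5 and 1 without SZ-A replicate 2). Alox5ap, the 5-lipoxygenase activating protein, went from 5.49 ± 3.01 to 52.3 ± 29.3 and 23.1 ± 10.4 FPKM. Ptgs1 and Ptgs2, the cyclooxygenases, were the 2 called lower, Ptgs1 at 29.5 ± 17.9, 3.34 ± 0.452 and 7.54 ± 7.69 FPKM. Of 7 basophil markers 4 were in the table, Il4, Il3ra, Csf2rb and Ccr2. All 4 were called higher in HFD against NC, and in SZ-A against HFD 0 were called by limma, 0 by voom and 1 at an unadjusted p under 0.05. The basophil-defining Mcpt8, Prss34 and Cd200r3 were not analysed here, and which cells the 4 calls come from was not tested.

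Most macrophage and fibroblast markers changed in the same directions as the proteases, whereas most endothelial and adipocyte markers did not. The part of other cells in the protease values was not tested. Of 13 macrophage markers, 12 were called higher in HFD against NC, 11 lower in SZ-A against HFD and 10 higher in SZ-A against NC (11 in the first and 11 in the last without NC replicate 6, and 10 in the second without SZ-A replicate 2). The list's median log2 fold change was 3.45, -1.45 and 1.997 in these comparisons. In summed FPKM the NC mice ran from 89.4 to 858, the HFD mice from 4095 to 11036 and the SZ-A mice from 1612 to 5451. Of 11 endothelial markers, HFD against NC called 0 by limma, 0 by voom and 0 at an unadjusted p under 0.05, with 1 called lower without NC replicate 6, and SZ-A against HFD called 1 higher (2 without SZ-A replicate 2), with sums of 19.8 to 729, 155 to 536 and 259 to 990 FPKM. Of 9 adipocyte markers, 1 was called higher and 2 lower in HFD against NC (1 and 6 without NC replicate 6) and 2 higher in SZ-A against HFD (5 without SZ-A replicate 2), with sums of 486 to 22212, 1393 to 6127 and 4291 to 14042 FPKM. Of 9 preadipocyte and fibroblast markers, 6 were called higher and 1 lower in HFD against NC, and 7 lower in SZ-A against HFD, with sums of 89.5 to 826, 1045 to 1565 and 453 to 702 FPKM. Of 9 markers of ILC2 and T cells, 2 were called higher and 3 lower in HFD against NC, 2 lower in SZ-A against HFD (1 without SZ-A replicate 2) and 1 higher in SZ-A against NC. Of 8 eosinophil markers only Ear2 was in the table, with 0.286 to 26.8, 27.3 to 56.1 and 21.3 to 84.2 FPKM.

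Within the HFD group, Cpa3 rose along the macrophage sum (r = 0.90, exact permutation p = 0.00258, adjusted 0.0119; rho = 0.96, adjusted 0.0167) and ran against the adipocyte sum (r = -0.83, permutation p adjusted 0.0248; rho = -0.89, adjusted 0.0461) and the endothelial sum (r = -0.88, adjusted 0.0119; rho = -0.96, adjusted 0.0167). These 9 relations with marker sums, 3 lists in 3 groups, were added after the values were seen and are counted among the 30. HFD replicate 1 had the highest Cpa3 and macrophage values and the lowest adipocyte and endothelial sums, and HFD replicate 6 the lowest Cpa3 and macrophage values. In the SZ-A group the macrophage relation did not pass (r = 0.15, permutation p adjusted 0.781; rho = -0.11, adjusted 0.900), while the adipocyte relation did (r = -0.92, permutation p adjusted 0.0248; rho = -0.89, adjusted 0.0461) and the endothelial relation did not (r = -0.43, permutation p adjusted 0.435; rho = -0.50, adjusted 0.364). In NC mice none of the 3 passed, with r of 0.78 for the macrophage sum, 0.66 for the adipocyte sum and 0.68 for the endothelial sum (permutation p adjusted 0.0926, 0.190 and 0.152; rho of 0.71, 0.60 and 0.71, adjusted 0.204, 0.345 and 0.204). Without NC replicates 1 and 6, the 2 NC mice farthest from the median of Cpa3, r was -0.03, -0.83 and -0.50. SZ-A replicates 5 and 6 had macrophage sums of 5451 and 4330 FPKM, inside the HFD range. Both had Cpa3 below all HFD mice, at 5.20 and 2.88 FPKM, but in SZ-A replicate 5 Cma1 (14.9 FPKM), Mcpt4 (24.1) and Tpsb2 (20.7) lay inside the HFD range.

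**Figure D4:**
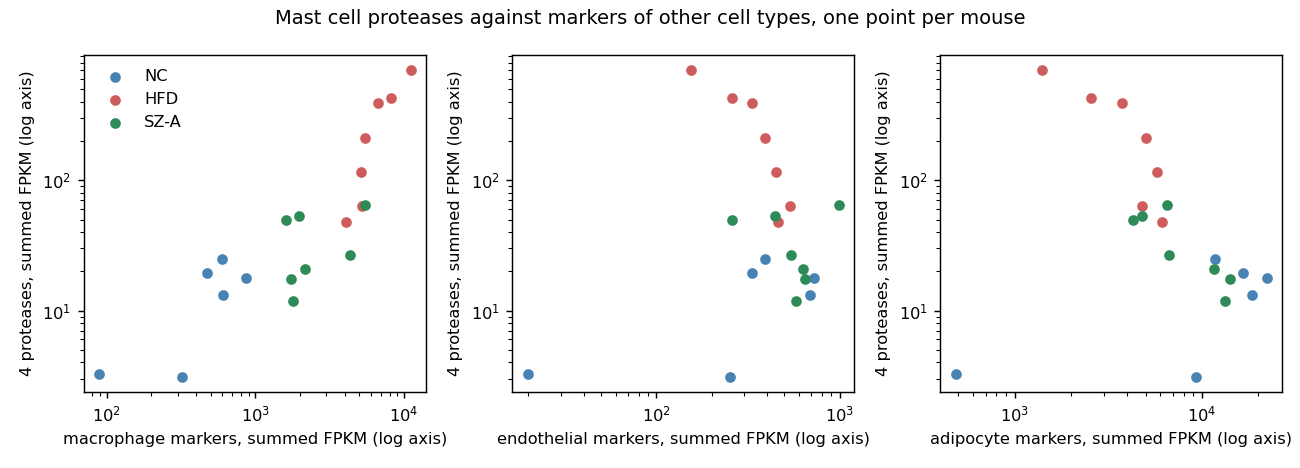
Summed FPKM of the 4 mast cell proteases against summed FPKM of macrophage, endothelial and adipocyte markers, 1 point per mouse, with log axes and colours for the 3 groups. Within HFD mice the protease sum, 47.9 to 704 FPKM, rises with the macrophage sum and falls with the other two, and the SZ-A mouse with the highest macrophage sum, 5451 FPKM, has a protease sum of 64.9 FPKM, inside the HFD range.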

How the data were processed

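RNA from the eWAT of 20 mice (labelled NC in 6, HFD in 7 and SZ-A in 7) was sequenced from poly(A)-selected libraries as paired-end reads. The authors aligned reads to GRCm38 with HISAT2, and featureCounts 1.5.0-p3 is named in the submitters' processing notes. The deposited values are FPKM, scaled by the authors to gene length and library size. Their annotation release and filter are not given in the sources used here. Gene positions were taken from GENCODE release M21, which held 14770 of the 14776 genes.

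Whole reads were recovered from the FPKM steps, within 0.01 reads, for 95.9% to 96.3% of values under 1000 reads, where a share of 95% was required of the step. Tpsb2 gave whole reads only at an exon length of 1081 in place of the 1594 of M21. Groups were compared in pairs by limma 3.58.1 (R 4.3.3) on log2(FPKM + 1), with a variance trend, using genes whose mean reached 0.1 FPKM, and with p-values adjusted by Benjamini-Hochberg across the whole table. Genes were called at an adjusted p under 0.05, and counted also at a log2 fold change beyond 1.5. The same limma steps were also run on values simulated from the NC and HFD mice, and the outcome is not reported here. Single members were also tested by exact two-sided permutation over mice. All tests measure the spread between mice. The members, marker lists and tests were chosen with earlier results of these data known. All members in the table are named. From other lists, genes called in any comparison, at most the 4 with the largest change per list and comparison, and Kitl, Il33, Fcer1g, Tpsab1, Slc18a2, Hnmt and Mitf could be named, and 1 gene that this rule reaches is not reported here. Ndst2, Srgn and Plcg1 fell outside that rule and were named for their roles after their values were seen. Alternatives were other pseudocounts (0.1 and 0.01), filters, scalings, fits and mice left out. Python 3.11.15, pandas 2.3.3, NumPy 2.4.6, SciPy 1.17.1 and matplotlib 3.10.9 were used.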

Additional observations from a re-analysis of the deposited data

How the results depend on the processing

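The 6 member calls of HFD against NC and the 6 of SZ-A against HFD stayed within 1.5 times under every alternative run, and the 4 proteases and Il1rl1 kept their calls in both under each of these alternatives. In SZ-A against NC, 0 members were called, 2 with array quality weights (Gata2, -1.20, and Il1rl1, 0.54), and 0 to 1 when 1 mouse was left out, with Il1rl1 called without NC replicate 3 or 5. Leaving out NC replicate 6 and SZ-A replicate 2 together, an alternative added after seeing the data, called 0. Array quality weights also lowered the protease differences of SZ-A against NC, to between 0.19 (Cma1) and 0.47 (Tpsb2), and a pseudocount of 0.01 raised that of Cpa3 to 1.45. The log2 difference of Kit in SZ-A against NC, -0.05, turned positive with array quality weights (0.088) and without those 2 mice (0.047), and ranged from -0.16 to 0.14 when 1 mouse was left out. The cause was not tested. Il1rl1 in HFD against NC was 3.54 with a pseudocount of 0.01, which shrinks low values less. A filter at 1 FPKM left no value for Hdc and Il1rl1 in SZ-A against NC.

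Replicate numbers do not pair mice: deviations of same-numbered mice correlated from -0.41 to 0.58, and not every mouse correlated best with its own number. With a replicate block, 6 members were called in HFD against NC, 6 in SZ-A against HFD and 0 in SZ-A against NC. Over all genes the replicate block moved the calls from 6047 to 4424, from 3349 to 2619 and from 678 to 167. Over all genes, SZ-A against HFD called 2089 with all 3 groups in 1 fit and 6403 with array quality weights, and SZ-A against NC called 1527 and 2639. Leaving out 1 mouse gave 423 to 860 calls in SZ-A against NC. Depth limits the lowest values: Il1rl1 had 3 reads and Cpa3 7 in NC replicate 6.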
